A study of Mus musculus with 6 samples.

Results

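The genes described here are 33 genes of epidermal T cells, given as a list of symbols: the chains of the T cell receptor complex and its signalling proteins, surface antigens and coreceptors, the interleukin-2 and interleukin-15 system, tissue residence genes and cytotoxic effectors. Of the 33 genes, 32 matched a row of the count tables, which hold 41214 genes, and 23 passed the filter on low counts, which kept 13704 genes. Trdc, the constant segment of the delta receptor chain, was not analysed here. The counts came from messenger RNA of epidermis from C57BL/6 mice at postnatal day 4, taken from skin treated with trypsin. There were 3 wild-type (wt) libraries and 3 from the ARPC4 knockout (ko), whose titles carry the mark hom. ARPC4 is a subunit of the Arp2/3 complex, which builds branched actin filaments, and the series title ties its loss in epidermis to a psoriasis-like disease. The labels name no floxed allele, promoter or Cre line, so whether the T cells themselves carried the deletion is not given.

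Mouse epidermis holds a resident population of gamma delta T cells, the dendritic epidermal T cells, which settle there before birth and carry a nearly uniform receptor built from the Trgv5 and Trdv4 variable segments. The receptor chains signal through the CD3 proteins and the zeta chain Cd247, the kinases Lck and Zap70 and the adaptor Lat. Interleukin-15, presented by the alpha chain Il15ra on neighbouring cells to the shared chains Il2rb and Il2rg, is needed for the survival of these cells, and the integrin chain Itgae anchors them to keratinocytes through E-cadherin. Several of the 33 genes are used by other cells too: Ptprc and Coro1a by all leukocytes, Thy1 by fibroblasts, and Il15, Il15ra and Rora by keratinocytes.

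The reads assigned to genes numbered 17561294 to 22659511 per library, and levels are given as CPM scaled by the trimmed mean of M values. Replicates 1 and 2 of each group carry a date in their titles, whose meaning is not given, and replicate 3 of each group does not. Replicate 3 is the one marked Tryp in the titles. The labels do not tell whether the replicates were separate animals, and the p-values then reflect no more than the spread between these libraries. The Y-linked gene Ddx3y was high in wt replicates 1 and 2 and in ko replicate 2, and Xist, made from the inactive X chromosome, in wt replicate 3 and ko replicates 1 and 3. Wt replicate 3 also had 27 reads of Ddx3y (1.22 CPM), where ko replicates 1 and 3 had 0. Arpc4 measured 72.6, 82.5 and 73.1 CPM in the 3 wt libraries, in replicate order, against 67.5, 65.6 and 64.5 CPM in the 3 ko libraries. Which part of the gene was deleted is not given, and reads of the rest are counted, so the deletion cannot be checked from this level.

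Compared between the genotypes, the smallest p among the 23 genes belonged to 3 genes of the interleukin-15 system, with Il2rg and Il15ra higher and Il15 lower in all ko libraries, while those of the receptor complex varied mainly among the ko libraries. None of the 23 genes passed the test in either direction (edgeR quasi-likelihood, Benjamini-Hochberg adjusted p under 0.05 over 13704 genes), where 30 of all 13704 genes (0.219%) were called higher and 0 (0.0%) lower. The unadjusted p was under 0.05 for 2 genes above 0, Il2rg and Il15ra, against 7.98% of all genes, and for 1 below, Il15, against 5.25%. DESeq2 called 1 higher and 1 lower, against 2.71% and 1.38% of its genes, and limma-voom called none among the 23 genes or among all genes. The groups did not overlap in 5 of 23 genes, against 19.4% of all genes, with Il2rg, Il15ra, Lat and Icos above (11.3% of all genes) and Il15 below (8.03%). With the date covariate 1 gene was called higher, Il2rg, against 3.2% of all genes, and 0 lower, against 1.98%. The log2 fold change, ko over wt, was above 0 in 13 genes (53.1% of all genes) and below 0 in 10 (46.9%), with a median of 0.04 beside 0.02 over all genes tested. These shares lie near those of all genes. In bulk tissue such as this, a change in the number of T cells and one in the RNA per T cell cannot be told apart.

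**Figure D1:**
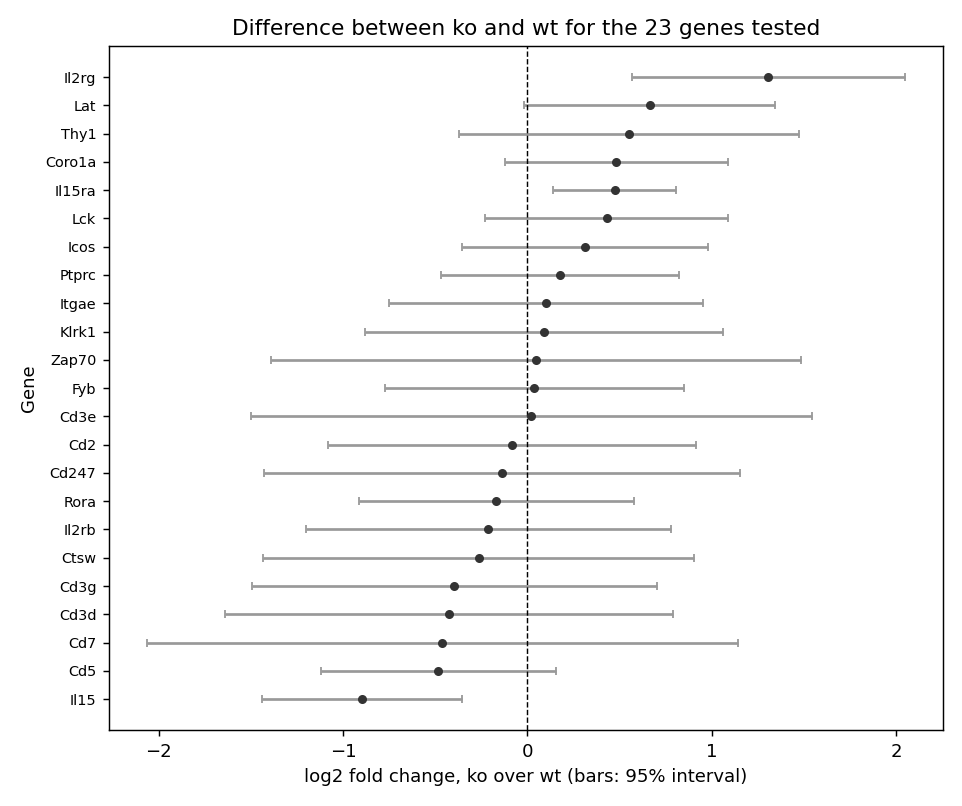
Log2 fold change, ko over wt, of the 23 genes tested, with bars for the 95% interval of the edgeR fit. The intervals of Il2rg, Il15ra and Il15 lie to one side of 0, from 0.57 to 2.05 for Il2rg, and those of the other genes include 0.

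Transcripts of the CD3 and zeta chains were detected in every library, and their levels differed more among the 3 ko libraries than between the genotypes. Cd3g, Cd3d and Cd3e, the gamma, delta and epsilon chains of CD3, lie next to each other on chromosome 9 (mm10). Cd3g (ENSMUSG00000002033, 44969572 to 44980431, minus strand) and Cd3d (ENSMUSG00000032094, 44981786 to 44987339, plus strand) start 1355 bases apart and are transcribed away from each other. Cd3e (ENSMUSG00000032093, 44998740 to 45009627, minus strand) starts 27841 bases from Cd3d. The sequences before the RefSeq starts of these genes are shown because the 3 genes had the same order among the ko libraries, and that of Il2rg because it had the largest difference between the groups among the 23 genes. They are the 250 bases before the start of the gene in RefSeq (GRCm38.p6, chr9:44980432-44980681 on the minus strand, chr9:44981536-44981785 on the plus strand, chr9:45009612-45009861 on the minus strand and chrX:101268256-101268505 on the minus strand), and capitals mark matches to 7 motifs on either strand. The RefSeq start of Cd3e lies inside the gene as annotated above, so its window overlaps the 5′ end of that gene.
Cd3g: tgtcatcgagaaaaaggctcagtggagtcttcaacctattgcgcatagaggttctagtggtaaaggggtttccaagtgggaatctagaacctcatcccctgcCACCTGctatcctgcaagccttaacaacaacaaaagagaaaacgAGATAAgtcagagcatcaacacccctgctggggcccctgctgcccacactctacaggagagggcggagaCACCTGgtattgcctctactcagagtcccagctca
Cd3d: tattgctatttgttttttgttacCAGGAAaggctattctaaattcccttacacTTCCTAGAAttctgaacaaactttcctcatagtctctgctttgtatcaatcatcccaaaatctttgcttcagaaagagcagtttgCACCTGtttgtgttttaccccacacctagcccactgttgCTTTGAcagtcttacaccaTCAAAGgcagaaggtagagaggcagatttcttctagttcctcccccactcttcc
Cd3e: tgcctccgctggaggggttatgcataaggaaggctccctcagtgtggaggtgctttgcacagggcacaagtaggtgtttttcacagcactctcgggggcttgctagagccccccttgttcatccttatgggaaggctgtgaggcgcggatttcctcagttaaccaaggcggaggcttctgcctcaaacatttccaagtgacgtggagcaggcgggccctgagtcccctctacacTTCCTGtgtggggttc
Il2rg: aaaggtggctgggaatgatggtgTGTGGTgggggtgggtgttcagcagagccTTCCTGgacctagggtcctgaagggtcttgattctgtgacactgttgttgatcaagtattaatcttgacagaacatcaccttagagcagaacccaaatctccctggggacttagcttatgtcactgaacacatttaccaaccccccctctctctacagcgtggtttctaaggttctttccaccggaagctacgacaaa

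The motifs searched were those of transcription factors active in lymphocytes, and each share is that of 32851 promoter windows of the same length. The E-box letters CAGNTG were found in 44.82% of windows. The Ets core, searched as CAGGAA, was found in 25.71%, and the letters of Runx factors, TGTGGT, in 14.05%. A site for GATA factors, with the letters searched being AGATAA, was found in 9.99%. Tcf factors were searched by CTTTGA, found in 13.83%. The gamma-activated site of Stat factors, TTCNNNGAA, was found in 7.02% of windows, and the AP-1 letters, TGANTCA, in 6.75%. The Cd3g window held 2 E-boxes, 148 and 35 bases before the start, and 1 GATA match at 104 bases. The Cd3d window held 1 E-box, 1 Ets match, 2 Tcf matches and 1 gamma-activated site, and the Il2rg window 1 Ets and 1 Runx match. The Cd3e window held 1 Ets match at 16 bases, in the part that overlaps the gene as annotated above. No match overlapped another, and none of the 4 windows held the AP-1 letters. Of the 33 genes, 20 had an entry in the promoter table. A match describes the letters and not a bound site.

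Cd3g was the most abundant of the 4 signalling chains by CPM, with 13.3, 19.997 and 13.1 CPM in the 3 wt libraries, in replicate order, against 19.7, 10.3 and 5.09 CPM in the 3 ko libraries. Cd3e had levels of 4.31, 6.75 and 3.72 CPM in wt against 9.34, 4.32 and 1.21 CPM in ko. Cd3d measured 2.99, 3.72 and 1.995 CPM in wt against 3.63, 1.95 and 0.839 CPM in ko. In all 3 genes ko replicate 1 was the highest of the ko libraries and ko replicate 3 was the lowest of all 6, while the groups overlapped. Cd247 (ENSMUSG00000005763, chromosome 1, 165788681 to 165877277), the zeta chain, followed the same order, with 3.57, 3.30 and 2.22 CPM in wt and 4.77, 2.54 and 0.892 CPM in ko. The sum of the 4 chains was 24.2, 33.8 and 20.99 CPM in wt and 37.5, 19.1 and 8.02 CPM in ko. By that sum both the highest and the lowest of the 6 libraries were ko. Within wt, replicate 3 was likewise the lowest library in each of the 4 chains, in Cd3g by 13.1 against 13.3 CPM.

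None of the 4 chains passed the test between the genotypes. The log2 fold change, ko over wt, was -0.40 for Cd3g (SE 0.46, 95% interval -1.50 to 0.70, adjusted p = 0.809), -0.42 for Cd3d (SE 0.51, adjusted p = 0.816), -0.14 for Cd247 (SE 0.54, adjusted p = 0.950) and 0.02 for Cd3e (SE 0.64, 95% interval -1.50 to 1.54, adjusted p = 0.995; all with edgeR). Single libraries moved these values: without ko replicate 1 they were -1.01, -1.07, -0.83 and -0.85 in the same order, and without ko replicate 3 they were -0.07, -0.07, 0.26 and 0.45. The sign of Cd3e also turned with the scaling, to -0.01 under DESeq2 size factors and -0.02 under library totals. Within the dated libraries the 4 values were -0.17, -0.27, 0.08 and 0.30, and ko replicate 3 against wt replicate 3, the pair without a date, gave -1.36, -1.25, -1.32 and -1.62.

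The receptor chains themselves were present at low counts. Trgv5 and Trdv4, the segments of the receptor of dendritic epidermal T cells, had 42, 38 and 17 reads and 43, 46 and 10 reads in wt replicates 1 to 3, and 38, 16 and 1 reads and 56, 23 and 2 reads in ko replicates 1 to 3. Tcrg-C1, a constant segment of the gamma chain, had 51, 39 and 34 reads in wt and 67, 23 and 10 in ko. These genes repeated the order of the CD3 chains among the ko libraries, and ko replicate 3 again held the fewest. Among the wt libraries, too, replicate 3 held the fewest. Trgv4, Trgv6 and Trgv7, used by gamma delta T cells of other tissues, had 3 reads or fewer in every library. Trac, the constant segment of the alpha chain, had 2 reads or fewer in every library. Trbc2 and Trbc1, the near-identical constant segments of the beta chain, were counted at 128, 117 and 88 and at 16, 11 and 13 reads in wt, and at 135, 112 and 87 and at 5, 7 and 6 reads in ko. Reads with more than 1 alignment were not counted, so the split between such copies is uncertain. Trbc1 had a log2 fold change of -0.95 (SE 0.36, edgeR adjusted p = 0.322) and Trbc2 one of 0.18 (SE 0.26, edgeR adjusted p = 0.857). Trdv4, Tcrg-C1, Trgv4, Trgv6 and Trgv7 were picked out after their values were seen.

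**Figure D2:**
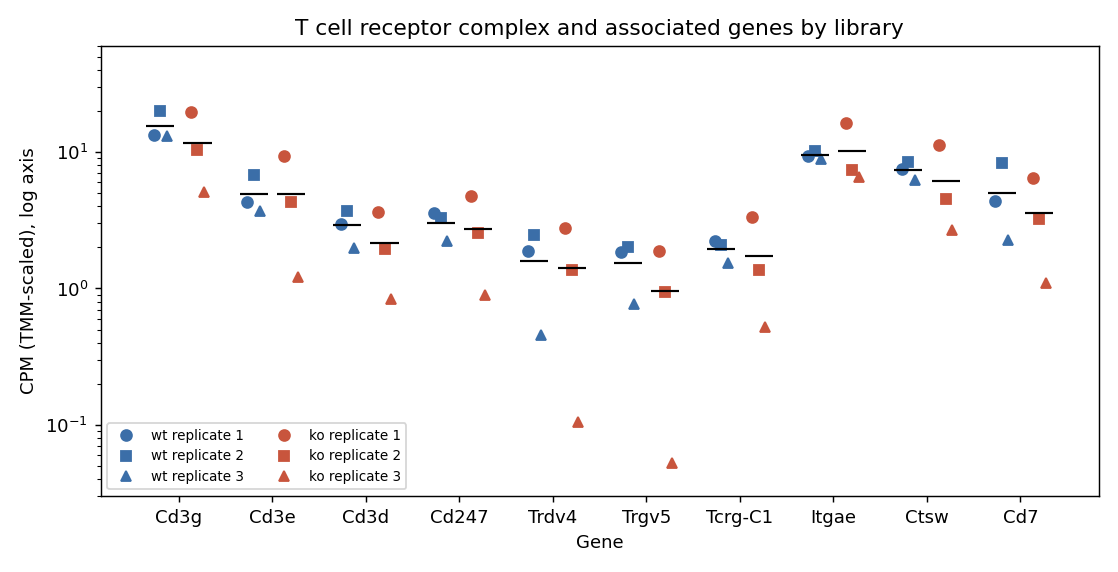
Levels in CPM (log axis) of 10 genes of the receptor complex and of T cells, with 1 point per library (wt blue, ko red, the shape giving the replicate) and a line at each group mean. In all 10 genes ko replicate 1 is the highest and ko replicate 3 the lowest of the 3 ko libraries, as in Cd3g with 19.7 and 5.09 CPM. The genes shown are a selection. Over the 23 genes tested this order held in 16, and not in Lck, Coro1a, Thy1, Icos, Il2rg, Il15ra and Rora.

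Of the signalling genes downstream of the receptor, the 5 listed had log2 fold changes of 0.04 to 0.66 (Fyb at -0.01 under library totals), and none passed the test. Here and below, the first value in parentheses is the log2 fold change. Lat, the adaptor that gathers the signalling complex at the membrane, had levels of 1.101, 1.28 and 1.18 CPM in wt against 2.44, 1.60 and 1.57 CPM in ko. All ko libraries exceeded all wt libraries (0.66 on the log2 scale, SE 0.29, edgeR adjusted p = 0.393). Coro1a, an actin-binding protein of leukocytes, measured 12.5, 17.0 and 18.8 CPM in wt against 29.6, 16.5 and 21.2 CPM in ko (0.48 on the log2 scale, SE 0.25, edgeR adjusted p = 0.496). Lck, the kinase that phosphorylates the CD3 chains, had levels of 2.07, 2.55 and 2.27 CPM in wt against 3.93, 2.25 and 3.04 CPM in ko (0.43, SE 0.28, edgeR adjusted p = 0.594). In both Coro1a and Lck the groups overlapped through ko replicate 2. Zap70, the kinase that docks on phosphorylated CD3 and zeta chains, measured 1.63, 2.02 and 0.635 CPM in wt against 2.63, 0.946 and 0.734 CPM in ko (0.04, SE 0.60). The adaptor Fyb had levels of 2.51, 2.61 and 2.86 CPM in wt against 4.13, 2.01 and 1.99 CPM in ko (0.04, SE 0.34). All 5 genes were highest in ko replicate 1.

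Surface antigens of T cells did not share a direction, and none passed the test. Ptprc, the CD45 phosphatase, measured 12.3, 15.2 and 18.5 CPM in wt against 24.1, 14.4 and 13.4 CPM in ko (0.18 on the log2 scale, SE 0.27, edgeR adjusted p = 0.863). Thy1 had levels of 12.1, 11.4 and 17.5 CPM in wt against 17.9, 10.8 and 31.4 CPM in ko (0.55, SE 0.39, edgeR adjusted p = 0.632), and without ko replicate 3 the log2 fold change was 0.04. Thy1 was one of 3 tested genes of the list, with Icos and Il2rg, that were highest in ko replicate 3, the library lowest in the CD3 chains. Cd5, which dampens receptor signalling, measured 5.24, 5.37 and 3.99 CPM in wt against 4.13, 3.84 and 2.47 CPM in ko (-0.48, SE 0.27, edgeR adjusted p = 0.525). Cd7 had levels of 4.402, 8.35 and 2.27 CPM in wt against 6.41, 3.25 and 1.101 CPM in ko (-0.46, SE 0.67, edgeR adjusted p = 0.856). Cd2, an adhesion molecule, measured 1.28, 1.54 and 1.68 CPM in wt against 2.29, 1.12 and 0.787 CPM in ko (-0.08, SE 0.42). All of these but Thy1 were highest in replicate 1 and lowest in replicate 3 among the ko libraries, as the CD3 chains were, and the groups overlapped in all 5 genes.

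The coreceptors and costimulatory receptors of conventional T cells were near the limit of detection. Cd4 had 9, 3 and 16 reads in wt and 9, 3 and 13 in ko, and Cd8a had 1 read in each wt library and 4, 2 and 6 in ko. Cd28 had 5, 2 and 10 reads in wt and 3, 3 and 10 in ko, Cd27 had 1 to 5 in wt and 3 to 6 in ko, and Cd6 had at most 5 reads in any library. Icos was the only tested gene among them, at 1.28, 1.22 and 0.861 CPM in wt and 1.29, 1.30 and 1.57 CPM in ko. Its groups did not overlap, by the small gap between 1.28 and 1.29 CPM, and it did not pass the test (0.31 on the log2 scale, SE 0.28, edgeR adjusted p = 0.736). A count of 3 reads, taken as the floor, corresponds to 0.132 to 0.177 CPM in these libraries.

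The interleukin-15 system held the 2 largest differences between the genotypes among the 23 genes, those of Il2rg and Il15, and the ligand pointed the opposite way to 2 of its receptor chains. Il2rg (ENSMUSG00000031304, chromosome X, 101264378 to 101268255, minus strand), the common gamma chain shared by several interleukin receptors, had levels of 3.48, 4.36 and 5.12 CPM in wt against 7.95, 8.81 and 15.3 CPM in ko. All ko libraries exceeded all wt libraries, and the log2 fold change was 1.31 (SE 0.31, 95% interval 0.57 to 2.05), a 2.47-fold difference. Il15 (ENSMUSG00000031712, chromosome 8, 82331632 to 82403222, minus strand), the cytokine itself, measured 9.95, 10.1 and 12.5 CPM in wt against 7.26, 5.74 and 4.46 CPM in ko. All wt libraries exceeded all ko libraries (-0.90 on the log2 scale, SE 0.23, 95% interval -1.44 to -0.36). Il15ra (ENSMUSG00000023206, chromosome 2, 11705290 to 11734317, plus strand), the chain that presents the cytokine, had levels of 16.5, 15.7 and 17.3 CPM in wt against 25.5, 19.7 and 23.5 CPM in ko (0.47 on the log2 scale, SE 0.14, 95% interval 0.14 to 0.80). Again all ko libraries exceeded all wt libraries.

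None of these genes passed the threshold of 0.05 with edgeR: the adjusted p was 0.146 for Il2rg, 0.163 for Il15 and 0.214 for Il15ra. DESeq2 called Il2rg higher (adjusted p = 0.0096) and Il15 lower (adjusted p = 0.0138), and did not call Il15ra (adjusted p = 0.146). With the date in the title (present or not) as a covariate the edgeR adjusted p was 0.0202 for Il2rg, 0.0648 for Il15 and 0.0890 for Il15ra. Il2rg kept its direction within the dated libraries (log2 fold change 1.07, edgeR adjusted p = 0.0904) and in the pair without a date (1.58). Il15 did so too, with -0.65 (edgeR adjusted p = 0.210) and -1.49, and so did Il15ra, with 0.46 (edgeR adjusted p = 0.265) and 0.44. Il2rg is X-linked and overlaps the predicted gene Gm20489 on the same strand. Among the libraries with Xist it lay at 5.12 CPM in wt replicate 3 and at 7.95 and 15.3 CPM in ko replicates 1 and 3, and among those with Ddx3y at 3.48 and 4.36 CPM in wt and 8.81 CPM in ko. With sex as a covariate, added after the data were seen, its log2 fold change was 1.18 (edgeR adjusted p = 0.189).

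The other receptor chains did not share this pattern. Il2rb, the beta chain of both receptors, measured 7.04, 8.99 and 5.94 CPM in wt against 10.6, 4.26 and 3.93 CPM in ko, with overlapping groups (-0.21 on the log2 scale, SE 0.42, edgeR adjusted p = 0.893). Among the ko libraries Il2rb was highest where the CD3 chains were highest. Il2ra, the high-affinity chain for interleukin-2, lies 62483 bases from Il15ra by their starts. It had 3, 2 and 6 reads in wt and 6, 2 and 33 in ko, so that only ko replicate 3 exceeded 6 reads.

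**Figure D3:**
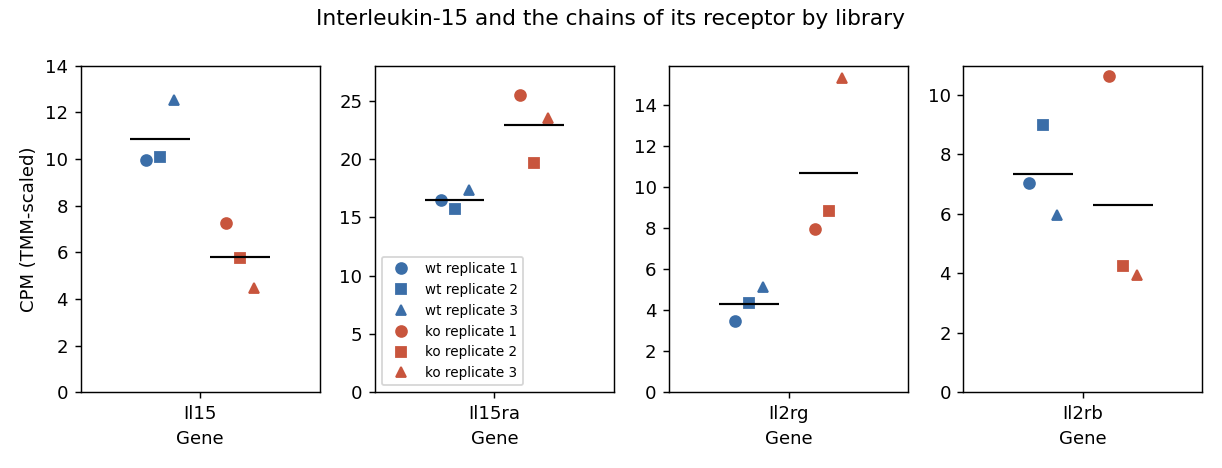
Levels in CPM (linear axes from 0) of interleukin-15 and 3 receptor chains, with 1 point per library and a line at each group mean. The groups do not overlap for Il15, Il15ra and Il2rg, with means of 10.9 and 5.82 CPM in wt and ko for Il15, and they overlap for Il2rb.

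Residence and effector genes gave no difference that passed the test. Itgae, the integrin chain that binds E-cadherin, had levels of 9.29, 10.3 and 8.93 CPM in wt against 16.5, 7.39 and 6.61 CPM in ko (0.10 on the log2 scale, SE 0.36, edgeR adjusted p = 0.944). Klrk1, the activating receptor NKG2D, measured 2.51, 1.97 and 2.09 CPM in wt against 3.83, 1.66 and 1.47 CPM in ko (0.09, SE 0.41). Ctsw, a cathepsin of cytotoxic lymphocytes, had levels of 7.53, 8.51 and 6.21 CPM in wt against 11.2, 4.55 and 2.67 CPM in ko (-0.26, SE 0.49). In all 3 genes the highest and the lowest of the 6 libraries were ko replicates 1 and 3. The nuclear receptor Rora lay far above the others, at 619, 735 and 435 CPM in wt against 573, 689 and 330 CPM in ko (-0.17, SE 0.31, edgeR adjusted p = 0.888). The granzymes, proteases of cytotoxic granules, were nearly absent from wt: Gzmb had 0, 0 and 2 reads in wt and 8, 1 and 25 in ko, and Gzma had 5 reads in ko replicate 3 and 0 elsewhere. At 0 reads the floor of 3 reads allows up to 0.177 CPM, for counting error only.

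Per length of exon, the 23 genes spanned a wide range. In RPKM (CPM divided by kilobases of exon, mean of the 6 libraries), the level was 43.1 for Rora, 6.93 for Coro1a, 5.63 for Thy1, 4.43 for Il15ra, 4.16 for Cd3g, 3.69 for Il15 and 3.14 for Il2rg. The level was 2.14 for Itgae, 1.59 for Il2rb, 1.39 for Cd3d, 1.21 for Cd3e and 0.541 for Cd247. Rora, Coro1a, Thy1 and Il15ra, which other cells of the skin also use, thus had a higher level per length than Cd3g, the highest of the CD3 chains. Coro1a, Rora, Itgae, Ctsw, Cd7, Cd247, Zap70 and Fyb overlap other genes on the opposite strand in the annotation. Lck, Lat and Il2rg overlap other genes on the same strand only. The strand used in counting is not given, so the counts of overlapping genes are uncertain to that extent.

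Nearly all of the 23 genes were spread more widely within ko than within wt. The ratio of the highest to the lowest library was wider in ko than in wt in 22 of 23 genes, Icos being the exception, against 44.7% of all genes tested. It was wider in ko in 60 of 94 tested genes of the other pathway lists given below. The ratio of ko replicate 1 to ko replicate 3 was 7.75 for Cd3e, 5.82 for Cd7, 5.35 for Cd247, 4.32 for Cd3d, 4.18 for Ctsw, 3.88 for Cd3g and 3.59 for Zap70. Within wt the widest ratio of those genes was 3.68, for Cd7, and that of Cd3e was 1.82. In 16 of 23 genes ko replicate 1 was the highest and ko replicate 3 the lowest of the 3 ko libraries, against 22.9% of all genes. Ko replicate 1 was the highest of all 6 libraries in 14 genes, against 12.1%, and ko replicate 3 the lowest in 14, against 24.7%. Both held in 8 genes, against 3.23%. The genes are not independent of each other. The order was read from these same libraries, and the CD3 chains that show it are among the 23 genes. These counts therefore describe the order and do not test it. Ko replicate 1 carries a date in its title, where ko replicate 3 has none and is marked Tryp. A feature of the library, of its date and of that mark cannot be told apart.

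**Figure D4:**
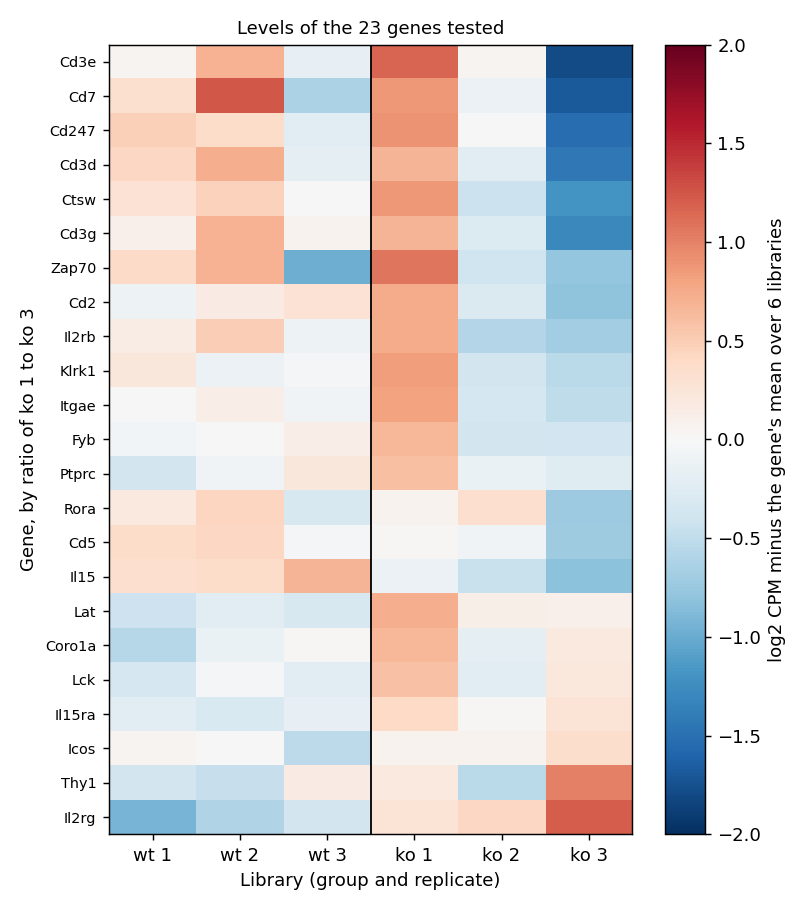
Levels of the 23 genes in each library, as log2 CPM minus the mean of the gene over the 6 libraries (colour scale from -2 to 2), ordered by the ratio of ko replicate 1 to ko replicate 3. The CD3 chains, Cd7, Ctsw and Zap70 sit at the top, with ratios of 3.59 to 7.75, and Il2rg and Thy1 at the bottom, with ko replicate 3 as their highest library.

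Keratinocyte markers, which define the tissue, summed to 78911 to 116850 CPM in wt and 88515 to 151810 CPM in ko. Markers of other cells moved between the libraries as well. The summed level of 18 genes shared by all leukocytes was 137 to 215 CPM in wt and 186 to 308 CPM in ko. Of its 17 tested genes, 17 lay above 0 (53.1% of all genes) and 15 were highest in ko replicate 1 (12.1%). None passed the edgeR test, and the groups did not overlap in 1 of 17, against 19.4% of all genes. The summed level of 21 Langerhans cell and macrophage markers was 406 to 938 CPM in wt and 538 to 1089 CPM in ko. Here 20 of 20 tested genes lay above 0 (53.1% of all genes), and none passed the edgeR test. Their groups did not overlap in 2 of 20, against 19.4% of all genes, and genes of 1 list are not independent of each other. In ko replicate 3, where the 4 CD3 chains summed to 8.02 CPM, the leukocyte genes summed to 251 CPM and the Langerhans cell and macrophage markers to 996 CPM. Both of those sums lay above every wt library. The CD3 chains do not stand for all 23 genes, of which 14 were lowest of the 6 libraries in ko replicate 3. Lck, Lat and Icos, at 3.04, 1.57 and 1.57 CPM in ko replicate 3, lay above every wt library. So did Coro1a, Thy1, Il2rg and Il15ra.

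Sums of dermal markers were higher in every ko library than in any wt library, with endothelial genes at 5.90 to 6.34 CPM in wt and 14.8 to 28.3 CPM in ko, and fibroblast genes at 183 to 318 CPM and 358 to 947 CPM. None of the 9 endothelial and 10 fibroblast genes tested passed the edgeR test. Their groups did not overlap in 9 and 6 of them, against 19.4% of all genes. Mast cell markers summed to 3.92 to 4.99 CPM in wt and 10.2 to 14.4 CPM in ko. Of these 8 markers 3 were tested, and 1 passed the edgeR test as higher in ko, against 0.219% of all genes. The 8 B cell markers summed to 78.3, 108.2 and 63.3 CPM in wt and to 82.1, 71.4 and 61.995 CPM in ko, so that ko replicate 1 was the highest and ko replicate 3 the lowest of the ko libraries, as for the CD3 chains. Most of that sum was Blnk, and Ms4a1, which encodes the B cell antigen CD20, had at most 1 read in any library. The 10 markers of NK and innate lymphoid cells, of which 3 were tested, summed to 6.59 to 9.25 CPM in wt and 6.92 to 13.1 CPM in ko, and of these Klra4, Klra8, Klra9 and Klrg1 were at 0 in every library and Ncr1 had at most 2 reads. The 8 neutrophil markers, of which 0 were tested, summed to 0.440 to 0.589 CPM in wt and 0.532 to 2.57 CPM in ko, with Ly6g at 0 in every library. The part of these other cells in the levels of genes they share with T cells, such as Il2rg, Il15ra, Ptprc and Thy1, was not tested.

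**Figure D5:**
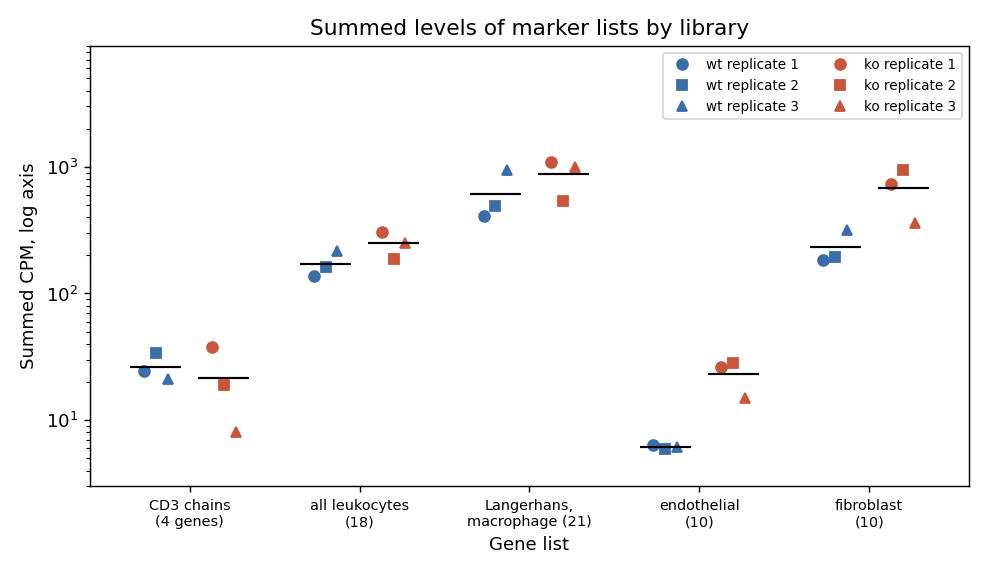
Summed CPM (log axis) of the 4 CD3 chains and of 4 marker lists, with 1 point per library and a line at each group mean. Ko replicate 3 is the lowest library for the CD3 chains, at 8.02 CPM, and lies above every wt library for the leukocyte, Langerhans cell and macrophage, endothelial and fibroblast lists.

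Other genes of T cell receptor signalling, receptor chains, common gamma chain cytokines, NKG2D ligands, homing, lymphoid transcription factors and effectors were read from lists of 156 genes, of which 151 matched and 94 were tested. None passed the edgeR test, and 10 above 0 (7.98% of all genes) and 3 below (5.25%) had an unadjusted p under 0.05. DESeq2 called 2 higher and 0 lower, against 2.71% and 1.38% of its genes. The groups did not overlap in 20 of 94 genes, against 19.4% of all genes. Of 38 tested signalling genes, 26 lay above 0 (53.1% of all genes) and 12 below (46.9%). Their median log2 fold change was 0.10, beside 0.02 over all genes tested, and the groups did not overlap in 6 of 38. Lcp2, the adaptor SLP-76 that joins Lat to its effectors, measured 1.80, 1.65 and 2.49 CPM in wt against 4.47, 2.66 and 5.09 CPM in ko (1.04, SE 0.32, edgeR adjusted p = 0.242). The exchange factor Vav1 had levels of 3.48, 4.20 and 4.04 CPM in wt against 7.85, 5.09 and 5.87 CPM in ko (0.69, SE 0.23, edgeR adjusted p = 0.282). Both genes are used by myeloid cells too, and in both all ko libraries exceeded all wt libraries.

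Around the common gamma chain, Il4ra, its partner in the interleukin-4 receptor, measured 37.5, 44.8 and 24.9 CPM in wt against 74.9, 69.6 and 110.2 CPM in ko. The log2 fold change was 1.25 (SE 0.27, edgeR adjusted p = 0.118), and DESeq2 called it (adjusted p = 0.00418). Socs1, an inhibitor of cytokine signalling, had levels of 1.23, 1.81 and 1.54 CPM in wt against 2.98, 1.83 and 6.24 CPM in ko (1.28, SE 0.48, edgeR adjusted p = 0.322). Jak1, a kinase of these receptors, had a log2 fold change of 0.27 (SE 0.12, edgeR adjusted p = 0.401), and Stat5b, a transcription factor downstream of interleukin-15, one of -0.26 (SE 0.12, edgeR adjusted p = 0.413). H60c, the ligand that skin keratinocytes present to NKG2D, measured 232, 271 and 211 CPM in wt against 183, 156 and 82.1 CPM in ko. All wt libraries exceeded all ko libraries, and the gene did not pass the test (-0.76, SE 0.29, edgeR adjusted p = 0.331), although it did with the date as a covariate (edgeR adjusted p = 0.0498). Its receptor Klrk1, in contrast, had overlapping groups.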

How the data were processed

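Per the labels' protocols, total RNA was extracted from trypsinized epidermis with TRIzol, and stranded libraries of messenger RNA were sequenced as single reads of 51 bases. The authors deposited raw counts of reads for each Ensembl identifier. Alignment and counting used TopHat2 2.0.12 with Bowtie 1.1, HTSeq and the build mm10, per the submitters' processing notes. How they were set, the strand option and the annotation are not stated in the sources used here, so reads of overlapping genes on either strand may be mixed. Reads with more than 1 alignment (32.4 to 40.9% per library), ambiguous reads and reads outside genes stayed out of library sizes and tests.

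Symbols were matched to identifiers by the reference table of names (40254 of 41214), and coordinates (1-based) and exon lengths came from GENCODE M21 on GRCm38, which is mm10. The groups came from the genotype label. The titles gave the replicates, with I as 1, II as 2 and Tryp as 3. Counts of replicates differed well beyond sampling (chi-square of 26.3 to 114 per degree of freedom). All genes kept by filterByExpr were scaled by TMM and tested with edgeR 4.0.16 (glmQLFit, robust, and glmQLFTest) in R 4.3.3, with group as the only factor and Benjamini-Hochberg adjustment over 13704 genes. Each SE was taken as the absolute log2 fold change divided by the root of the F statistic. DESeq2 1.42.0 and limma-voom (limma 3.58.1), other scalings and filters, a replicate block, the presence of a date as a covariate, the dated libraries alone and leaving out each library were alternatives, and a sex covariate was added after the data were seen. The fit was checked on simulated counts.

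The genes and lists were chosen with earlier results of these data known. All members with a mean of at least 1 CPM among the tested genes are named, and up to 4 genes of each other list by smallest p, apart from those said to be picked later. Counting error is large under 1 CPM.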

Additional observations from a re-analysis of the deposited data

How the results depend on the processing

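Under 10 other settings, the log2 fold changes of the 23 genes kept their direction and their side of the threshold in 205 of 230 comparisons. They passed the threshold anew in 4 (Il2rg with DESeq2, with the replicate block and with the date covariate, Il15 with DESeq2) and turned in sign in 21, for genes whose values lay near 0. The cause was not tested. Cd3e went to -0.0077 with DESeq2 size factors, -0.0213 with library totals, -0.0285 with DESeq2, -0.35 with limma-voom, -0.20 with the replicate block and -0.16 with the date covariate. Zap70 went to -0.0189 with DESeq2, -0.0244 with limma-voom and -0.0093 in the dated libraries. Fyb went to -0.0073 with library totals, -0.0066 with the replicate block, -0.0425 with limma-voom and -0.0949 with the sex covariate. Itgae went to -0.0019 with limma-voom, -0.0015 with the replicate block and -0.0007 with the sex covariate, and Klrk1 to -0.0342 with limma-voom and -0.0059 with the sex covariate. Rora went to 0.04 with the sex covariate. In the dated libraries Cd247 went to 0.0809 and Cd2 to 0.28.

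Leaving out each library in turn moved Cd3e between -0.85 and 0.45, Cd247 between -0.83 and 0.26, Zap70 between -0.75 and 0.36, Fyb between -0.41 and 0.21, Ptprc between -0.14 and 0.32, Cd2 between -0.65 and 0.18, Cd7 between -1.21 and 0.11, Il2rb between -0.84 and 0.0051, Itgae between -0.44 and 0.30, Rora between -0.40 and 0.0467, Klrk1 between -0.49 and 0.31, Ctsw between -1.04 and 0.0648 and Thy1 between 0.04 and 0.85. With 2 libraries left in a group, those are assumed to vary like the others. Il2rg stayed between 0.92 and 1.48, Il15 between -1.09 and -0.77 and Il15ra between 0.39 and 0.57.

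Of the 23 genes, 1 was called higher with DESeq2, with the replicate block and with the date covariate, and 1 lower with DESeq2. Of the other pathway genes, 2 were called higher with DESeq2, 3 with the replicate block, 2 with the date covariate and 2 in the dated libraries, and 1 lower with the date covariate. Over all genes, the calls higher in ko went from 30 to 55 with no filter, 18 with a filter of 1 CPM in 3 libraries, 426 with DESeq2, 0 with limma-voom, 254 with the replicate block, 438 with the date covariate, 57 with the sex covariate and 160 in the dated libraries, and to between 0 and 64 without 1 library. The calls lower in ko went from 0 to 2 with no filter, 216 with DESeq2, 100 with the replicate block, 271 with the date covariate, 5 with the sex covariate and 67 in the dated libraries, and to between 0 and 2 without 1 library.

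Same-numbered wt and ko libraries deviated from their group means with correlations of -0.186, 0.469 and 0.67. Differently numbered libraries gave -0.689 to 0.509. Deviations from a mean of 3 libraries depend on each other, so these values cannot decide whether the numbers pair the samples. The block is therefore only a comparison of settings. Genes under about 1 CPM, such as the granzymes and coreceptors, are limited by depth.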

Other observations

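Among effector genes outside the 33, Areg, an epidermal growth factor family ligand made by T cells and by keratinocytes, had levels of 15.5, 16.5 and 17.6 CPM in wt against 31.4, 36.1 and 52.2 CPM in ko. Its log2 fold change was 1.27 (SE 0.20, edgeR adjusted p = 0.0783), and it passed with DESeq2 (adjusted p = 9.7e-05) and with the date covariate (edgeR adjusted p = 0.00911). Ctsc, the protease that activates granzymes, measured 131, 156 and 140 CPM in wt against 191, 262 and 190 CPM in ko (0.59, SE 0.17, edgeR adjusted p = 0.191). Il17a, picked out after its value was seen, was at 0 in every library.

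Among homing genes, the chemokine Ccl20 had levels of 11.5, 9.36 and 36.6 CPM in wt against 37.4, 53.1 and 51.0 CPM in ko (1.30 on the log2 scale, SE 0.51, edgeR adjusted p = 0.343, and 0.0165 in the dated libraries alone). Ccr4, a chemokine receptor of skin T cells, measured 4.62, 7.34 and 4.67 CPM in wt against 4.27, 4.14 and 2.83 CPM in ko, with all wt libraries above all ko libraries (-0.56, SE 0.29, edgeR adjusted p = 0.477). S1pr1, of the same list, had 1, 4 and 8 reads in wt and 18, 18 and 9 in ko. None of the 11 homing genes tested passed the edgeR test. Of the lymphoid transcription factors, Runx3 had levels of 5.94, 6.28 and 7.16 CPM in wt against 14.96, 8.93 and 7.97 CPM in ko. Its log2 fold change was 0.72 (SE 0.27, edgeR adjusted p = 0.326). Of the 17 factors tested, 7 lay above 0 (53.1% of all genes) and 10 below (46.9%). The unadjusted edgeR p was under 0.05 for 1 above (7.98% of all genes) and 1 below (5.25%).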
